A study of Mus musculus with 6 samples.

Results

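The 10 genes described here encode the cyclins, kinases and kinase inhibitors that govern passage through G1, and they were followed in single cells of the mouse bladder mucosa. They are the D-type cyclins Ccnd1, Ccnd2 and Ccnd3, the E-type cyclins Ccne1 and Ccne2, the kinases Cdk4 and Cdk6, and the inhibitors Cdkn1b (p27), Cdkn1c (p57) and Cdkn2b (p15). They were listed by name and matched by Ensembl identifier. All 10 were present, out of the 14338 genes that every table holds once mitochondrial and ribosomal genes are left out. The mice were wild type C57BL/6 of 8 weeks, males and females pooled, and the torn-off mucosal layer was dissociated with collagenase and profiled by 3′ droplet sequencing with unique molecular identifiers (UMIs). Healthy mice had received no cyclophosphamide (CPP), a drug whose metabolites injure the bladder. Acute mice had received 1 injection of 150 mg/kg, and chronic mice 4 injections of 75 mg/kg. Injured mice were collected 48 hours after the last injection, which was day 2 in acute and day 11 in chronic injury. Each condition was represented by 2 libraries, numbered as in the sample titles. The study describes the libraries of a condition as biological replicates. It also processed and sequenced its samples in batches, and since the batch of each library is not given in the sources used here, batch and condition cannot be told apart.

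In G1, extracellular growth signals raise the D-type cyclins, which bind and activate Cdk4 and Cdk6. These kinases phosphorylate the retinoblastoma protein and thereby free E2F factors, whose targets include the E-type cyclins, and cyclin E with Cdk2 then starts S phase. Cdkn2b belongs to the INK4 family, which binds only Cdk4 and Cdk6, whereas Cdkn1b and Cdkn1c belong to the Cip/Kip family and block cyclin E and cyclin A complexes as well. In the urothelium, basal and intermediate cells divide while the superficial umbrella cells are terminally differentiated and often polyploid, and the tissue is known for slow turnover at rest and rapid division after injury.

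The libraries held 54604109 to 111985678 UMIs in 5348 to 15062 barcodes, with medians of 5530 to 9138 UMIs per barcode. Any pair of libraries shared at most 229 barcodes. After filtering, 48890 cells entered classes named from their markers: the urothelial list summed to 4530 to 16800 UMIs per 1000000 UMIs (counts per 1000000, CPM) in the 3 non-cycling urothelial layers, and the mesenchymal list to 10900 to 57500 CPM in fibroblasts and myofibroblasts. The 5 measured basal markers had medians of 5970, 2970 and 645 CPM in basal, intermediate and superficial cells, and the 6 superficial markers had medians of 2000, 7030 and 18400 CPM. The same lists named and divided the classes, so these levels describe the classes and do not test them. In chronic library 2 the urothelial list reached 5160 CPM in fibroblasts and 6750 CPM in endothelial cells. The split into basal and intermediate cells was a threshold on a score, with 6.77% of these cells within 0.1 of it. Cells were called cycling from scores of 42 S phase and 54 G2/M genes that hold none of the 10 genes. Levels below are the CPM of a gene among the UMIs of a class in 1 library, as mean ± SD over libraries. They are shares of a class's RNA and not molecules per cell, and fewer molecules and more RNA of other genes cannot be told apart. UMIs are counted at transcript 3′ ends and were not scaled by length, so levels were not compared between genes.

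On the mouse genome build GRCm38 the members of the D family lie apart, Ccnd1 at chr7:144929931-144939925 on the minus strand, Ccnd2 at chr6:127125162-127152193 on the minus strand and Ccnd3 at chr17:47505051-47599691 on the plus strand. Ccne1 lies at chr7:38097984-38107534 (minus strand) and Ccne2 at chr4:11191351-11204779 (plus strand). The kinases lie at chr10:127063534-127067920 (Cdk4) and chr5:3341485-3531008 (Cdk6), both on the plus strand. Among the inhibitors, Cdkn1b spans chr6:134920401-134925513 on the plus strand, Cdkn1c chr7:143458339-143461050 on the minus strand and Cdkn2b chr4:89306299-89311039 on the minus strand.

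The RefSeq promoter table of this build (GRCm38.p6) held 6 of the 10 genes (Ccnd3 with more than 1 start) and not Ccnd1, Ccnd2, Ccne2 or Cdkn1c. The 250 bases before each start were searched on both strands for an E2F core (the forms TCCCGC, then TCGCGC, then TGCCGC, then TGGCGC), for the longer E2F motif that contains it (TTTCCCGC, TTTCGCGC, TTTGCCGC or TTTGGCGC) and for the E-box CACGTG that Myc and related factors bind. The promoters of Ccne1 and Cdk4 are shown because these are the genes that were called higher in cycling cells of all 3 urothelial classes below. Capitals mark E2F cores in the Ccne1 stretch (chr7:38107532-38107740, minus strand, 5′ to 3′) and E-boxes in the Cdk4 stretch (chr10:127063285-127063533, plus strand).
Ccne1: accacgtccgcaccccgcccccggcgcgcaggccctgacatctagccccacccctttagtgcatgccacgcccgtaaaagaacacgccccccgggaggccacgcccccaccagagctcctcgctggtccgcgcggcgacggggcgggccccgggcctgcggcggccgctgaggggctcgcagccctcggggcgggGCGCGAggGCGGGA
Cdk4: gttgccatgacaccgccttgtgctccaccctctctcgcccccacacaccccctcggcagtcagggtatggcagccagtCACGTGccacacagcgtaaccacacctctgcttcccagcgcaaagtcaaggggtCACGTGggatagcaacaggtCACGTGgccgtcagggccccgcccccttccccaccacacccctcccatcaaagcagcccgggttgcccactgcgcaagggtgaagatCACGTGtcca
The whole Ccne1 window held 4 E2F cores, 55, 47, 32 and 7 bases before the RefSeq start, of which the 2 farthest are printed because the GENCODE gene begins within the second of them. As many as 4 were found in 1.55% of 32851 promoters, and at least 1 in 31.1%. Cdk4 had 4 E-boxes, between 172 and 11 bases before its start, a number reached by 0.0213% of promoters, while 6.02% held at least 1. The longer E2F motif, found in 1.86% of all promoters, was in none of the 6. These matches describe letters only and were not tested as sites.

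In non-cycling urothelial cells of all 6 libraries, healthy and injured, the 3 D-type cyclins followed different layers. Ccnd1 fell stepwise from basal to superficial cells, Ccnd2 was on average highest in superficial and lowest in intermediate cells, and Ccnd3 rose in superficial cells. The Ccnd1 level in non-cycling basal cells was 207 and 140 CPM in the healthy, 196 and 59.0 in the acute and 105 and 113 in the chronic libraries. In intermediate cells it was 101, 82.0, 118, 49.0, 56.7 and 65.5 CPM in the same order, and in superficial cells 65.0, 44.8, 92.5, 40.2, 26.4 and 43.5. Each library showed the order basal, intermediate, superficial, although the ranges of the layers overlapped because the libraries differed. Relative to basal cells, Ccnd1 was lower in intermediate cells by a log2 difference of -0.69 ± 0.11 (SE, adjusted p 3.71e-05), and relative to intermediate cells it was lower in superficial cells by -0.51 ± 0.11 (adjusted p 0.000791). These adjusted p-values are from edgeR's quasi-likelihood test with the library as block over 6 libraries.

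Ccnd2 levels in superficial cells were 427 and 320 CPM in the healthy, 1050 and 376 in the acute and 403 and 412 in the chronic libraries. The intermediate layer held 288, 185, 417, 182, 204 and 233 CPM, and the basal layer 536, 296, 512, 222, 252 and 266. Acute library 1 was the highest superficial value by a wide margin, yet superficial exceeded intermediate cells in every library. Ccnd2 rose by 1.04 ± 0.11 from intermediate to superficial cells (adjusted p 1.38e-07) and fell by 0.41 ± 0.11 from basal to intermediate cells (adjusted p 0.00754). The latter call was lost when the libraries were clustered without integration. Ccnd3 was the least variable of the D-type cyclins, at 58.6 ± 4.52 CPM in basal, 62.7 ± 3.19 in intermediate and 84.3 ± 8.80 in superficial cells, and its superficial values (72.3 to 96.7 CPM) did not overlap those of either other layer. It rose by 0.52 ± 0.07 from intermediate to superficial cells (adjusted p 9.45e-07), whereas the basal to intermediate difference of 0.14 did not pass (adjusted p 0.119) except without healthy library 1 (0.19, adjusted p 0.0322).

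Both kinases were highest in basal cells. Cdk4 was 199 ± 22.4 CPM in basal, 148 ± 14.1 in intermediate and 145 ± 11.4 in superficial cells, a difference of -0.37 ± 0.06 from basal to intermediate cells (adjusted p 5.94e-05) and of 0.07 between the upper layers (adjusted p 0.315). Cdk6 fell by 0.71 ± 0.11 between the lower layers, from 93.7 ± 24 to 54.9 ± 10.9 CPM (adjusted p 2.5e-05). It rose again to 64.0 ± 20.7 CPM in superficial cells (0.34 ± 0.11, adjusted p 0.0121), though in 4 of 6 libraries only and with 2 going the other way. That last rise was lost without acute library 1 (0.26) and without chronic library 2 (0.29).

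The inhibitors divided between layers. Cdkn2b (p15), which antagonizes Cdk4 and Cdk6, was lowest where these kinases were highest: basal cells held 19.7, 38.4, 27.4, 35.0, 42.1 and 31.6 CPM and intermediate cells 43.7, 70.9, 47.3, 63.0, 64.9 and 47.9 CPM, in the library order above. Every intermediate value exceeded every basal value, and the rise was 0.88 ± 0.08 (adjusted p 1.07e-08), while the difference from intermediate to superficial cells (57.3 ± 13 CPM) did not pass (0.12, adjusted p 0.148). Cdkn1c (p57) was scarce in basal and intermediate cells (3.15 ± 1.04 and 2.60 ± 0.922 CPM) and was 10.5 ± 6.25 CPM in superficial cells, a rise of 2.04 ± 0.19 over intermediate cells (adjusted p 1.58e-08). Its superficial level ran from 3.26 to 20.7 CPM, so the size differed widely between libraries while the direction held in all 6. Cdkn1b (p27) moved the other way, from 15.5 ± 2.1 CPM in intermediate to 11.0 ± 1.38 in superficial cells (-0.42 ± 0.12, adjusted p 0.0036), also lost without integration. Ccne1 and Ccne2 were near 1 CPM in all 3 non-cycling layers, below the filter on low counts, and were not tested there.

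Counted together, 8 of the 10 genes were tested between layers. From basal to intermediate cells 1 rose and 4 fell, where 40.2% of 11404 genes tested were called. From intermediate to superficial cells 4 rose and 2 fell, beside 56.3% of all genes. Between superficial and basal cells all 8 were called, 4 up and 4 down, beside 65.4% of all genes, and there Cdk6 (-0.37 ± 0.12) lost its call without either healthy library (-0.24 and -0.27). So large a share of genes separated the layers that the counts of members stand near the background. Of the 28 other genes of the pathway, 23 were tested. In intermediate against basal cells 2 rose and 8 fell, among them Skp2 (1.10 ± 0.26), a subunit of the ligase that degrades Cdkn1b, Cdc25a (0.34 ± 0.09), a phosphatase that activates Cdk2, Cdkn1a (-1.14 ± 0.14) and Cdkn2c (-1.54 ± 0.24), which are further CDK inhibitors. In superficial against intermediate cells 5 rose, with Cks1b (0.73 ± 0.08), Cdc25a (0.61 ± 0.08) and E2f1 (1.37 ± 0.26) in front, and Fbxw7 (-0.20 ± 0.08), the ligase subunit that targets cyclin E, fell.

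**Figure D1:**
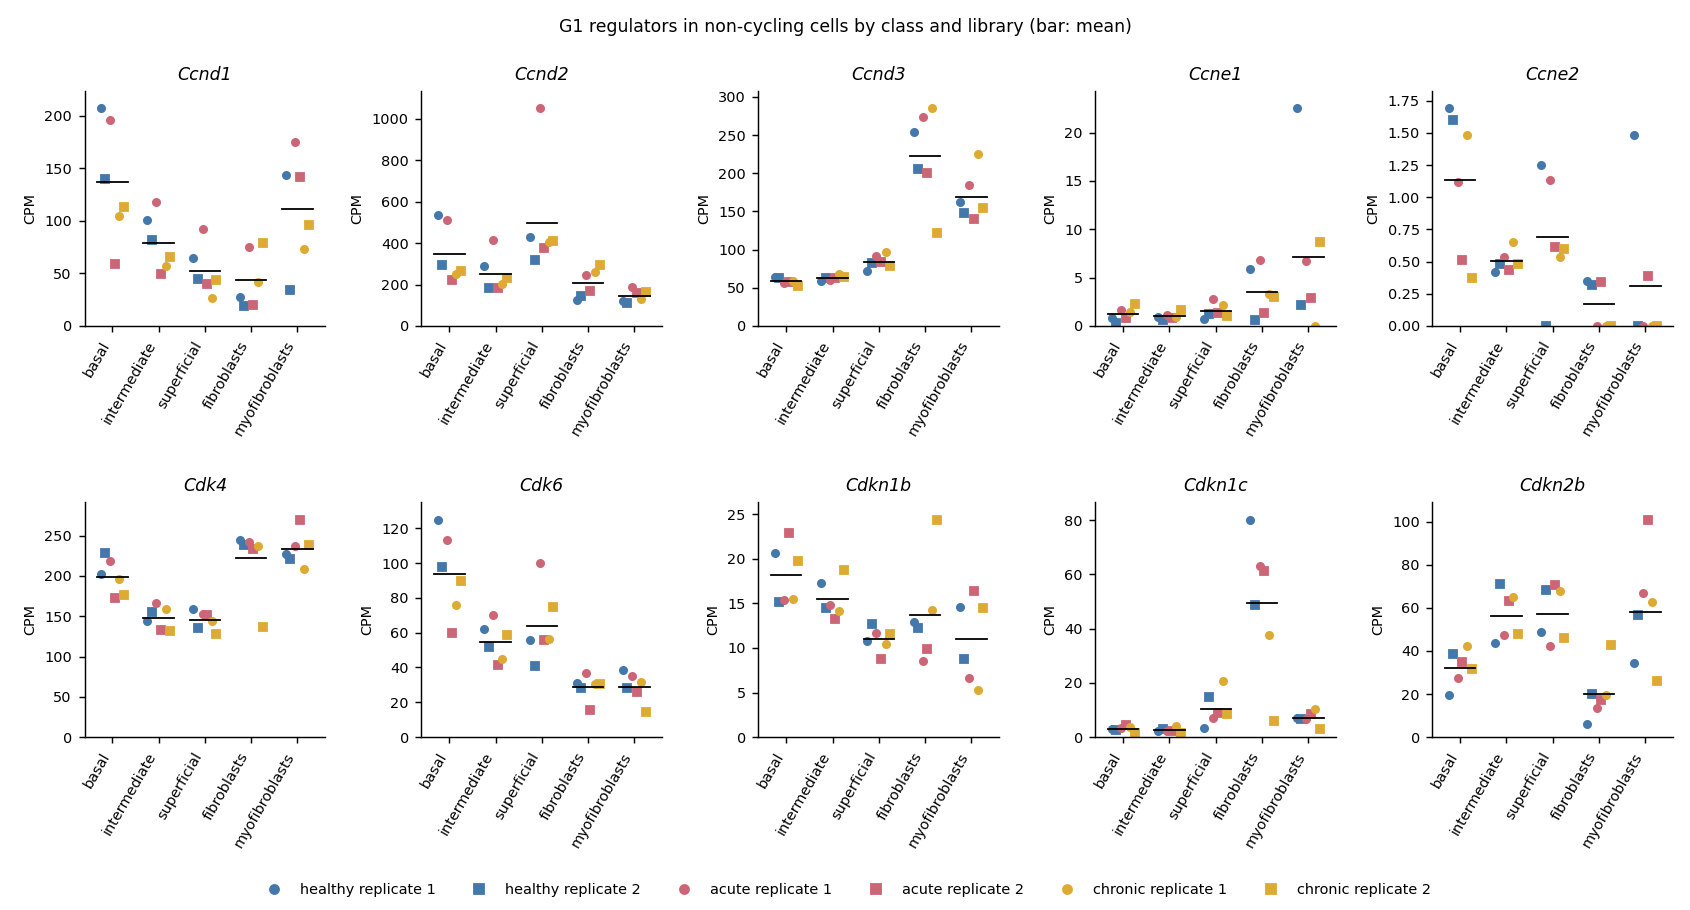
Level in CPM (y axis, from 0) of each of the 10 genes in 5 non-cycling classes (x axis), with 1 point for each library, coloured by condition, and a bar at the mean over 6 libraries. Ccnd3 and Cdkn1c are highest in fibroblasts, Cdkn2b is low in basal cells and fibroblasts, and acute library 1 stands out for Ccnd2 in superficial cells at 1050 CPM.

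Cycling urothelial cells differed from non-cycling ones of the same class in which regulators they carried. Ccne1 and Cdk4 were higher in cycling cells of all 3 classes, while Ccnd2 was lower in cycling basal cells and in cycling cells with superficial markers, the latter only as long as a mostly cycling sub-cluster was included. The study's own list of cell cycle genes, drawn from these samples, holds Ccnd1, Ccnd3 and Cdk4, so their direction here is not independent evidence. Cycling cells made up 4.653% and 5.497% of urothelial cells in the healthy libraries, 25.753% and 12.144% in the acute and 10.043% and 7.817% in the chronic ones. The median depth of cycling against non-cycling cells was 8301 against 7272 UMIs in basal and 6531 against 8708 in intermediate cells. Cell numbers in cycling classes ranged from 70 to 663 per library in basal cells and from 126 to 569 in intermediate cells.

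In basal cells, Ccne1 was 12.4 and 9.21 CPM in the cycling cells of the healthy, 12.3 and 9.42 in those of the acute and 6.55 and 6.29 in those of the chronic libraries, against 0.355 to 2.23 CPM in non-cycling cells. The ranges did not overlap, and the log2 fold change was 3.08 ± 0.36 (adjusted p 2.04e-08), resting on 74 and 24 UMIs in all. Cdk4 was 261 to 329 CPM in cycling against 173 to 229 CPM in non-cycling basal cells, higher in 6 of 6 libraries and without overlap (0.52 ± 0.07, adjusted p 4.4e-07). Cdkn1c, an inhibitor, rose with cycling in this layer from 3.15 ± 1.04 to 9.85 ± 2.04 CPM (1.58 ± 0.28, adjusted p 4.17e-05), again in 6 of 6 libraries. Ccnd2 fell from 347 ± 139 to 277 ± 102 CPM (-0.36 ± 0.10, adjusted p 0.00732), in 5 of 6 libraries, with the healthy library 2 going the other way. Its call was lost with DESeq2 and without either acute library (-0.26 without library 1, -0.30 without library 2). The remaining members did not pass, with Ccnd1 closest at 0.36 ± 0.13 (adjusted p 0.0503), a call that was made under 4 alternatives, among them without healthy library 1 (0.60), the one library in which its cycling level (104 CPM) was under its non-cycling level (207 CPM). Ccnd3 (0.21 ± 0.10), Cdk6 (-0.19), Cdkn1b (0.35 ± 0.17) and Cdkn2b (0.20) had adjusted p-values from 0.15 to 0.324. All 4 were called with basal cells by sub-cluster (0.37, -0.30, 0.54 and 0.39), the first 3 also with 4 MADs (0.34, -0.33 and 0.51) and Cdk6 without healthy library 2 (-0.29). Ccne2 was not tested (4.24 ± 3.26 against 1.13 ± 0.567 CPM). Many cycling basal cells lay in a sub-cluster of 1007 cells, 573 of them in acute library 1. Of its cells 99.6% were cycling and 71.9% basal by score, and the others counted as intermediate. The cycling and non-cycling basal cells thus came in part from different sub-clusters, and the comparison was not made without this one.

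In intermediate cells Ccne1 rose from 1.03 ± 0.368 to 7.37 ± 6.43 CPM (2.72 ± 0.38, adjusted p 5.16e-06), in 5 of 6 libraries, since healthy library 2 held no Ccne1 UMI in its 169 cycling intermediate cells, which allows up to 4.58 CPM (3 counts). Cdk4 rose from 148 ± 14.1 to 198 ± 49.8 CPM (0.35 ± 0.08, adjusted p 0.00158) and Ccnd1 from 78.7 ± 26.7 to 108 ± 40.0 CPM (0.40 ± 0.08, adjusted p 0.00034), both in 6 of 6 libraries. Ccnd3 rose in 5 of 6 libraries, from 62.7 ± 3.19 to 83.5 ± 14.8 CPM (0.35 ± 0.09, adjusted p 0.00823), a call lost without acute library 1 (0.23). Cdkn2b was the single member called lower, at 46.7 ± 13.3 against 56.3 ± 11.3 CPM (-0.30 ± 0.10, adjusted p 0.0429). It stayed called in 4 of 16 alternatives only. When the basal call was made for whole sub-clusters instead of single cells, the calls of Ccnd3, Ccne1, Cdk4 and Cdkn2b were lost. Ccnd2 (-0.07), Cdk6 (0.05), Cdkn1b (0.31 ± 0.16) and Cdkn1c (0.31 ± 0.37) did not pass, although Ccnd2 was called lower with the stricter cycling threshold of 4 scaled median absolute deviations (MADs) above the median instead of 2 (-0.41, adjusted p 0.000896).

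The third comparison took the cells with superficial markers, in the 4 injured libraries only, because the healthy ones had 18 and 19 such cycling cells. This comparison was added after values had been seen, and 8 of 10 genes were called. The study counts its cycling luminal cells with superficial traits as intermediate cells, so the arms are not shown to share a layer. The arms did not come from the same sub-clusters: 813 of the cycling cells of these libraries lay in a sub-cluster of which 96.21% was cycling, with cycle genes and no superficial marker among its 10 leading genes and a superficial z of 1.1 against a threshold of 1. The other 334 cycling and all 2495 non-cycling cells lay in another sub-cluster, with a z of 1.83, since the few non-cycling cells of the mostly cycling sub-cluster were put in no class. The comparison was therefore also made within the latter alone, an alternative chosen after seeing the data. There 5 genes stayed called: Ccne1 (3.34), Ccne2 (3.82), Ccnd3 (0.61), Ccnd1 (0.46) and Cdk4 (0.42). The 3 calls of lower genes were lost, Ccnd2 (-0.09, adjusted p 0.63), Cdk6 (-0.07, adjusted p 0.82) and Cdkn1c (-1.17, adjusted p 0.0537). Each of the 8 calls stood in the 16 other alternatives, although leaving out either healthy library could not change this comparison. The values that follow are those of both sub-clusters together. The cycling cells had 130 to 553 members per library and a median of 18515.5 UMIs per cell, against 14231 in non-cycling superficial cells. Ccne1 was 25.4 and 29.6 CPM in the acute and 25.8 and 55.7 in the chronic libraries, against 1.84 ± 0.817 CPM in non-cycling cells (4.07 ± 0.22, adjusted p 1.78e-17). Ccne2 was 9.08, 11.6, 9.49 and 30.9 CPM against 0.720 ± 0.277 (4.2 ± 0.32, adjusted p 1.43e-13). Chronic library 2 was the highest for both E-type cyclins, and Ccne2 remained higher by 3.61 without it. Ccnd3 rose from 87.9 ± 7.91 to 165 ± 15.1 CPM (0.83 ± 0.07, adjusted p 1.19e-12), Cdk4 from 144 ± 11.3 to 253 ± 15.4 CPM (0.75 ± 0.06, adjusted p 2.09e-12) and Ccnd1 from 50.7 ± 28.9 to 85.0 ± 38.6 CPM (0.68 ± 0.08, adjusted p 1.68e-08). Lower in the cycling cells were Ccnd2 (379 ± 172 against 560 ± 325 CPM, -0.58 ± 0.07, adjusted p 7.74e-09) and Cdk6 (54.2 ± 13 against 71.8 ± 20.9 CPM, -0.45 ± 0.09, adjusted p 6.69e-05). Cdkn1c was lower as well (6.15 ± 2.70 against 11.2 ± 6.38 CPM, -0.86 ± 0.22, adjusted p 0.00186), whereas in basal cells it had been higher in cycling cells. Non-cycling intermediate cells held 2.60 ± 0.922 CPM of Cdkn1c over 6 libraries, and the cycling cells with superficial markers were not tested against them. Cdkn1b (0.32 ± 0.17) and Cdkn2b (0.14) did not pass (adjusted p 0.133 and 0.213).

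Whether cycling went with different changes in basal cells and in cells with superficial markers was tested in the 4 injured libraries as the difference of both effects. This comparison was added after values had been seen, so its p-values are not independent of them. Cdkn1c was the 1 member of 10 that passed, beside 0.897% of 11365 genes. Its level in basal cells was 13.4, 10.2, 9.83 and 9.44 CPM in cycling and 3.35, 4.61, 3.69 and 1.49 CPM in non-cycling cells of acute libraries 1 and 2 and chronic libraries 1 and 2. In cells with superficial markers it was 3.07, 8.68, 8.13 and 4.70 CPM in cycling and 6.98, 8.87, 20.7 and 8.37 CPM in non-cycling cells. Each library had more Cdkn1c in cycling than in non-cycling basal cells, although on 3 UMIs in the cycling cells of each chronic library. With superficial markers the cycling cells had less in each library, and in acute library 2 hardly less. The difference of effects was -2.86 ± 0.43 (adjusted p 0.000181). It was -2.17 without acute library 1, where it did not pass (adjusted p 0.128). Without the mostly cycling sub-cluster with superficial markers it was -3.13 (adjusted p 0.000101), while the mostly cycling sub-cluster of basal cells stayed in. Ccnd3 came next with a larger rise in cells with superficial markers (0.54 ± 0.14, adjusted p 0.0604), and the other 8 members had adjusted p-values of 0.528 and above. The Ccnd3 difference was called with DESeq2 (0.56), other size factors (0.57), stricter cells (0.64), doublets kept (0.67) and 4 MADs (0.61).

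In counts, 3 of 9 tested members rose and 1 fell in cycling basal cells, beside 21.1% of 9671 genes called. In intermediate cells 4 rose and 1 fell of 9 tested, beside 13.3% of 11726 genes, and in cells with superficial markers 5 rose and 3 fell of 10 tested, beside 35.5% of 11185 genes. Every other gene of the pathway that was called in these comparisons rose. In basal cells 10 of 22 tested pathway genes rose, led by Ccna2 (6.75 ± 0.21), the cyclin of S phase, and the INK4 inhibitors Cdkn2c (3.54 ± 0.23) and Cdkn2d (2.41 ± 0.18). In intermediate cells 10 of 25 rose, with Ccna2 (5.29 ± 0.28), Cdkn2c (3.75 ± 0.30) and E2f1 (3.55 ± 0.34) in front, and in cells with superficial markers 18 of 27 rose. Cks1b and E2f8 were themselves among the genes that defined cycling cells, so that their rise, where these counts include it, is no finding. The effect of cycling was also compared directly between basal and intermediate cells: no member was called with edgeR, beside 0.675% of 10519 genes, while 2 of 9 had an unadjusted p under 0.05 (Cdkn1c, 1.36 ± 0.41, and Cdkn2b, 0.53 ± 0.16, adjusted p 0.119 and 0.122). DESeq2 called 0 members there and gave 3 no adjusted p, and when basal cells were taken by sub-cluster Cdk6 (-0.55, adjusted p 0.0157) and Cdkn2b (0.65, adjusted p 0.00649) were called.

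**Figure D2:**
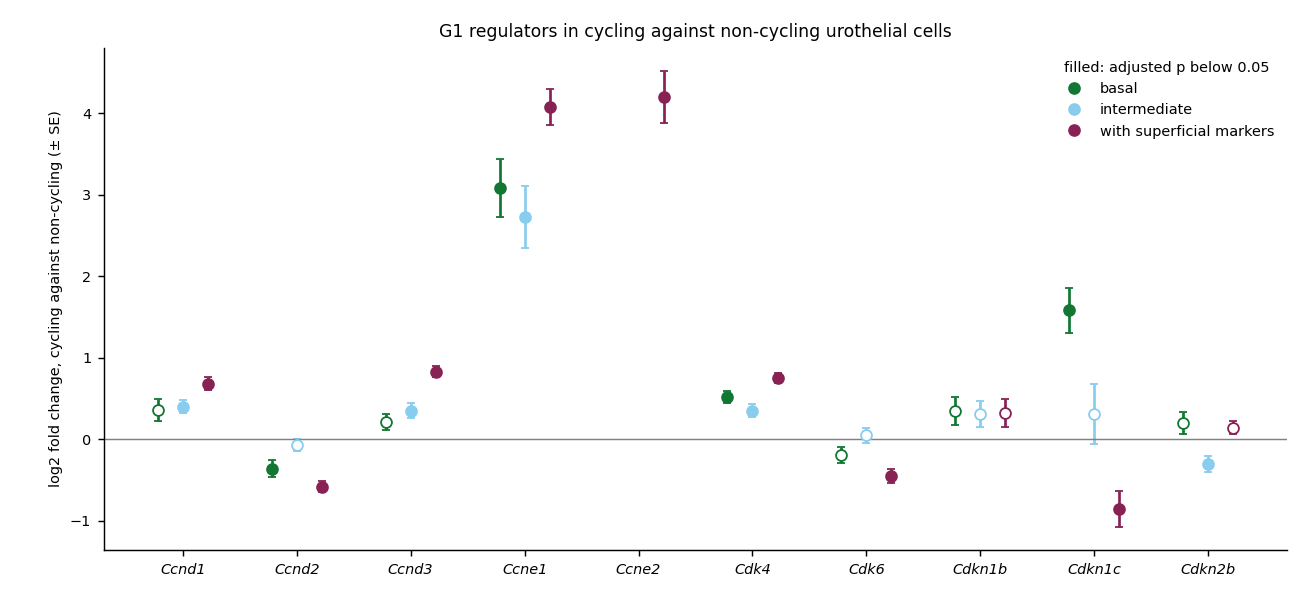
Log2 fold change ± SE of each gene (x axis) in cycling against non-cycling cells (y axis, 0 marked by a grey line) for basal and intermediate cells of 6 libraries and cells with superficial markers of 4 libraries. Filled points have an adjusted p below 0.05: Ccne1 and Cdk4 are filled and above 0 in all 3 classes, and Ccnd2 is filled and below 0 in 2. The lower values of Ccnd2, Cdk6 and Cdkn1c with superficial markers did not pass without the mostly cycling sub-cluster.

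Cycling cells were divided by the higher of their 2 scores into S-called and G2/M-called cells. The S-called cells had a median of 8111 and the G2/M-called cells of 10339.5 UMIs, and the part of depth and of free RNA in these calls was not tested. Ccne1, Ccnd2, Ccnd3 and Cdk6 were higher in S-called cells and Cdkn2b was higher in G2/M-called cells. For Ccne1 the S-called levels were 19.2 and 7.85 CPM in the healthy, 30.6 and 29.4 in the acute and 14.4 and 40.8 in the chronic libraries, and the G2/M-called levels 4.35, 0, 11.9, 11.5, 8.70 and 27.9 CPM. No Ccne1 UMI was seen in the 71 G2/M-called cells of healthy library 2, which allows up to 9.35 CPM (3 counts). The S-called value was higher within each library, by 1.24 ± 0.18 (adjusted p 0.000162). Ccnd2 was 364 ± 144 CPM in S-called and 262 ± 76.6 CPM in G2/M-called cells (0.51 ± 0.09, adjusted p 0.000893), and Cdk6 was 74.4 ± 20.2 and 52.2 ± 19.3 CPM (0.44 ± 0.12, adjusted p 0.0328), both higher in 6 of 6 libraries. Ccnd3 was higher in 5 of 6, at 121 ± 25.6 against 101 ± 12.7 CPM (0.33 ± 0.10, adjusted p 0.0366). Cdkn2b stood at 43.4 ± 16.3 against 58.5 ± 17.8 CPM (-0.39 ± 0.10, adjusted p 0.02). Ccne1 and Ccnd2 kept their calls in 16 of 16 alternatives, Ccnd3 and Cdkn2b in 12 and Cdk6 in 10. Ccnd1 (-0.03), Cdk4 (-0.12 ± 0.08) and Cdkn1b (-0.29) did not pass, although Ccnd1 was called with 4 MADs (-0.33, adjusted p 0.0119). Ccne2 and Cdkn1c were below the filter: Ccne2 was higher in S-called cells of each library (10.2 ± 8.01 against 4.49 ± 5.87 CPM), and Cdkn1c lower in each (4.13 ± 1.55 against 9.20 ± 2.39 CPM). The G2/M-called cells of healthy libraries 1 and 2 held no Ccne2 UMI, which allows up to 4.35 and 9.35 CPM (3 counts). With 5 of 8 tested members called, the background was 10.8% of 9268 genes. In the pathway 2 of 25 genes rose in S-called cells, E2f1 (1.05 ± 0.14) and Cdc25a (0.45 ± 0.12), and 6 fell. Of these, Cks1b is a gene of the G2/M score, so that its fall is no finding, and the others included Cdkn2c (-1.48 ± 0.19), Cdkn2d (-1.48 ± 0.19) and Ccna2 (-1.85 ± 0.25).

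The S-called and G2/M-called cells did not come from the layers in equal parts. Basal cells made up a median of 25.8% of the S-called and 38.5% of the G2/M-called cells over the 6 libraries, intermediate cells 47.6% and 39.0%, and cells with superficial markers 28.3% and 27.7%. The comparison was therefore repeated within each layer, after values had been seen. Ccnd2 was called higher in S-called cells of each layer, least firmly in intermediate cells. In basal cells it was 373 ± 125 against 217 ± 98.3 CPM (0.89 ± 0.12, adjusted p 8.58e-08, 6 of 6 libraries). In intermediate cells it was 274 ± 105 against 216 ± 46.8 CPM (0.40 ± 0.12, adjusted p 0.0308, 4 of 6 libraries), and in cells with superficial markers 417 ± 187 against 323 ± 155 CPM (0.40 ± 0.07, adjusted p 2.32e-05, 4 of 4 libraries). The intermediate call stood in 10 of 16 alternatives and was lost with DESeq2 (0.36, adjusted p 0.367), with basal cells by sub-cluster (0.20, adjusted p 0.938) and without healthy library 1, either acute library (0.25 without library 1, adjusted p 0.376) or chronic library 1, while the calls in the other layers stood in 15 of 15 (basal) and 16 of 16 alternatives. Cdk6 was called in basal cells (102 ± 32.8 against 60.9 ± 22.2 CPM, 0.67 ± 0.16, adjusted p 0.00275), a call lost with DESeq2 and without acute library 1 (0.68, adjusted p 0.0601). It did not pass in intermediate cells (0.30 ± 0.17), where it was called without integration (0.52, adjusted p 0.04), or in cells with superficial markers (0.34 ± 0.12, adjusted p 0.0817), where it was called without acute library 1 (0.72, adjusted p 0.00702).

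Both E-type cyclins could be tested only in the cells with superficial markers. There Ccne1 was 42.4 ± 12.4 CPM in S-called and 21.6 ± 15.6 CPM in G2/M-called cells (1.13 ± 0.17, adjusted p 5.19e-06), and Ccne2 was 19.1 ± 9.69 and 9.34 ± 10.3 CPM (1.43 ± 0.27, adjusted p 0.000268), each higher in 4 of 4 libraries. The basal values of Ccne1, below the filter, were 14.5 ± 9.88 and 5.56 ± 4.76 CPM, and those of intermediate cells were 7.68 ± 7.10 and 7.39 ± 7.14 CPM, higher in the S-called cells of 5 and of 2 of 6 libraries. Cdkn2b was lower in S-called cells with superficial markers, at 52.0 ± 19.2 against 84.3 ± 28.3 CPM in G2/M-called ones (-0.57 ± 0.11, adjusted p 0.000271, 4 of 4 libraries), and the difference in intermediate cells was -0.04 ± 0.18. Cdk4 was called lower in S-called intermediate cells (180 ± 52.2 against 234 ± 38.8 CPM, -0.39 ± 0.11, adjusted p 0.0221, 6 of 6 libraries), which stood in 7 of 16 alternatives. The difference was -0.02 with 4 MADs and with basal cells by sub-cluster, and the call was also lost without acute library 2 or either chronic library (-0.36 to -0.35). Cdk4 was not called in basal cells (-0.03 ± 0.11) or with superficial markers (-0.04 ± 0.07). Ccnd3 did not pass in any layer (adjusted p 0.145, 0.547 and 0.055). It was called in basal cells taken by sub-cluster (0.53, adjusted p 0.0124) and, with superficial markers, in 5 of 16 alternatives, with values from 0.26 to 0.38 (0.38 without acute library 1, adjusted p 0.0121). The backgrounds were 14.0% of 4590 genes in basal cells, with 2 of 5 tested members called, 6.87% of 6169 in intermediate cells, with 2 of 6, and 8.7% of 8642 in cells with superficial markers, with 4 of 9. Without the mostly cycling sub-cluster no library had 20 G2/M-called cells with superficial markers, so that the values of this class rest on it. Differences between layers in these effects were not tested.

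In the stroma, the fibroblasts and the myofibroblasts differed in 3 members, and all 3 calls stood in 16 of 16 alternatives. Cdkn1c was high in fibroblasts, whereas Ccnd1 and Cdkn2b were high in myofibroblasts. Fibroblasts held 80.2 and 48.7 CPM of Cdkn1c in the healthy, 63.0 and 61.3 in the acute and 37.7 and 6.09 in the chronic libraries. Myofibroblasts held 7.17, 6.56, 6.67, 8.66, 10.5 and 2.91 CPM. The levels overlapped only through chronic library 2, and within each library fibroblasts were higher (-2.95 ± 0.18 in myofibroblasts against fibroblasts, adjusted p 6.91e-08). That library had 91 fibroblasts, in which the 6 mesenchymal markers summed to 10900 CPM and the 7 urothelial markers reached 56.7% of their level in urothelial cells, a share of 8.88% to 25.3% in the fibroblasts of the other libraries. Without it the difference was -2.99 (adjusted p 7.12e-08).

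Ccnd1 was 111 ± 52.5 CPM in myofibroblasts and 43.6 ± 27.2 CPM in fibroblasts, higher in 6 of 6 libraries (1.70 ± 0.28, adjusted p 0.00052). Cdkn2b was 58.1 ± 26.6 and 19.8 ± 12.3 CPM (2.01 ± 0.27, adjusted p 8.54e-05), higher in 5 of 6, the exception being chronic library 2. Neither Ccnd2 (145 ± 30 against 207 ± 69.1 CPM, -0.35 ± 0.14, adjusted p 0.0998) nor Ccnd3 (169 ± 31.5 against 223 ± 60.7 CPM, -0.35 ± 0.12, adjusted p 0.0636) passed, although Ccnd3 was called without chronic library 2 (-0.46, adjusted p 0.00601). Cdk4 (0.13), Cdk6 (0.29) and Cdkn1b (0.16) did not pass either. The 3 called of 8 tested stand beside 17.6% of 9922 genes, and in the pathway E2f1 was called of 19 tested, lower in myofibroblasts (-1.68 ± 0.36, adjusted p 0.00446).

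Fibroblast sub-clusters were assigned to 3 subtypes by the highest mean z of their markers, and these markers were shared in part. The Pi16 sub-cluster had a z of 1.06 for the Has1 list, above the 0.95 of a Has1 sub-cluster. Among the leading genes of an Inmt sub-cluster of 513 cells was Bglap2. Chronic library 2 had at least 20 cells of 1 subtype only, and in these Has1 cells the urothelial markers summed to 5510 and the mesenchymal markers to 9570 CPM, so the means are over the 5 libraries that had all 3. Cdkn1c was 87.2 ± 32.2 CPM in those with Pi16 and Mfap5, 53.2 ± 23.0 in those with Inmt and Sct, and 36.0 ± 11.5 in those with Has1, Scara5 and Bglap2, and the Pi16 cells were highest in 4 of 5 libraries. Over these libraries the Pi16 cells ranged from 45.2 to 124 CPM and the Inmt cells from 19.3 to 82.7, so the ranges overlapped. Ccnd1 was 51.6 ± 32.4 CPM in Has1, 23.7 ± 10.2 in Pi16 and 23.1 ± 27.6 in Inmt cells, with the Has1 cells highest in 5 of 5 libraries. The Inmt cells of healthy library 1 held no Ccnd1 UMI, which allows up to 14.6 CPM (3 counts). Inmt cells numbered 66, 221, 46, 954 and 94 in the 5 libraries. The urothelial markers summed to 1140, 2700, 1920, 1090 and 3610 CPM in the Has1 cells of these libraries, to 564, 1440, 424, 934 and 2580 CPM in the Pi16 cells and to 667, 2200, 1980, 1320 and 2560 CPM in the Inmt cells, and their part in the Ccnd1 values was not tested. Ccnd3 was 273 ± 48.8, 240 ± 28.7 and 186 ± 20.3 CPM in Pi16, Has1 and Inmt cells. Differences between subtypes were not tested. The sub-clusters of myofibroblasts did not carry the markers of 1 subtype each and were kept as 1 class.

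**Figure D3:**
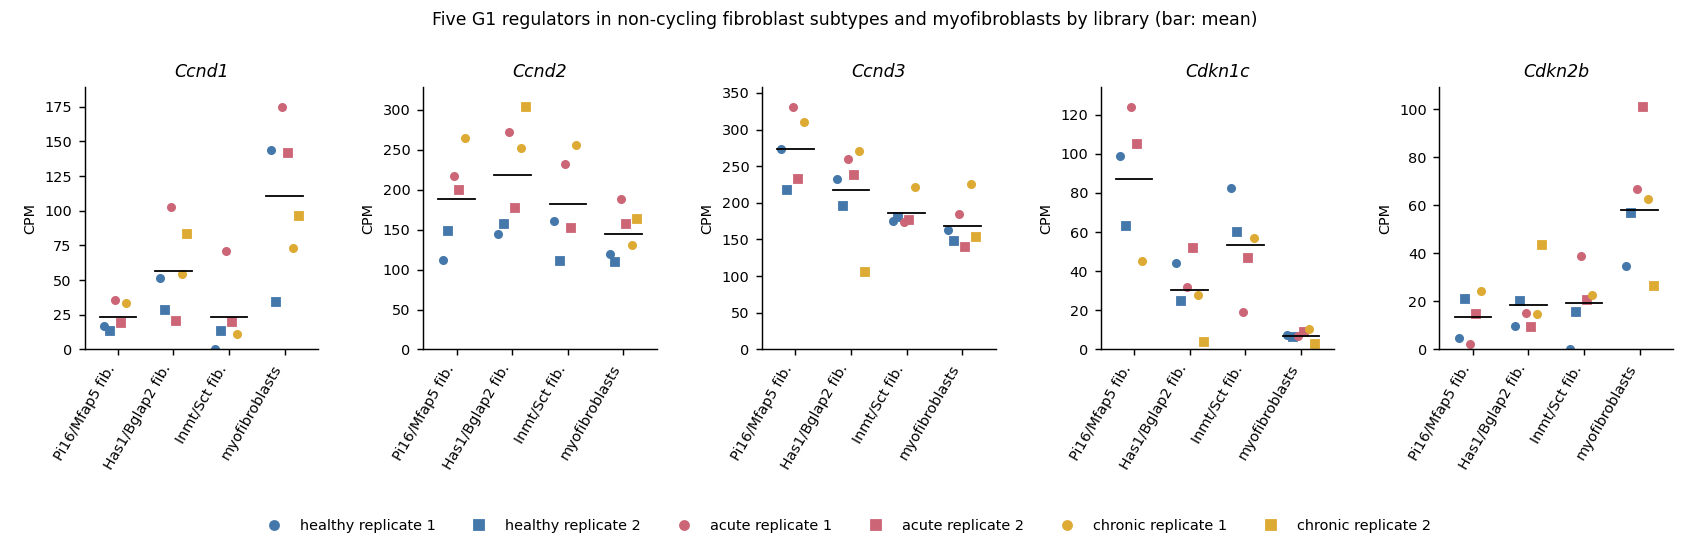
Level in CPM (y axis, from 0) of Ccnd1, Ccnd2, Ccnd3, Cdkn1c and Cdkn2b in 3 fibroblast subtypes and in myofibroblasts (x axis), all non-cycling, with 1 point for each library with at least 20 cells, coloured by condition, and a bar at the mean. Cdkn1c reaches 124 CPM in the Pi16/Mfap5 fibroblasts and stays at or under 10.5 CPM in myofibroblasts, where Ccnd1 and Cdkn2b have their highest means.

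Set against the mesenchymal cells as a whole, non-cycling urothelial cells had less Ccnd3, Cdk4 and Cdkn1c and more Ccnd2 and Cdk6. For Ccnd3 the urothelial values lay between 61.7 and 72.6 CPM in all 6 libraries, and the mesenchymal values were 201, 192, 244, 153, 281 and 138 CPM. They did not overlap (-1.55 ± 0.14, adjusted p 5.39e-06). Cdkn1c was 3.96 ± 1.61 against 30.2 ± 14.9 CPM (-2.94 ± 0.32, adjusted p 1.75e-05), and Cdk4 was 155 ± 13.4 against 233 ± 23.9 CPM (-0.56 ± 0.10, adjusted p 0.000436). Ccne1 was lower in urothelial cells too, at 1.14 ± 0.397 against 5.82 ± 5.26 CPM (-2.11 ± 0.45, adjusted p 0.0018), with the widest spread in the mesenchymal cells, where healthy library 1 held 15.6 CPM, and the difference without that library was -1.51. Cdk6 was the clearest in the other direction (62.0 ± 13.6 against 29.4 ± 5.82 CPM, 1.06 ± 0.12, adjusted p 2.33e-05, 6 of 6 libraries). Ccnd2 was 310 ± 135 against 187 ± 53.9 CPM (0.72 ± 0.18, adjusted p 0.00453), and Cdkn2b was 53.2 ± 10.9 against 37.1 ± 22.9 CPM (0.67 ± 0.24, adjusted p 0.0263), a call lost without healthy library 1 (0.61), healthy library 2 (0.55) or chronic library 1 (0.49). Ccnd1 (0.16) and Cdkn1b (0.20) did not pass. The 7 calls among 9 tested members stand beside 69.9% of 13149 genes called, so most genes separated these compartments. The mesenchymal cells mixed fibroblasts and myofibroblasts, the latter from 80 of 1216 cells (chronic library 1) to 2690 of 4098 (acute library 2). Myofibroblasts alone held on average less Cdkn1c (7.08 ± 2.52 CPM) than superficial cells (10.5 ± 6.25), with overlapping library values, and this was not tested. They held no less Cdkn2b (58.1 ± 26.6 CPM) than urothelial cells on average.

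In the pathway, 7 of 25 tested genes were higher in urothelial cells, with Cdc25a (1.5 ± 0.13), Tfdp2 (1.01 ± 0.13), a partner of E2F factors, Ambra1 (0.78 ± 0.13), which directs the degradation of D-type cyclins, and Mnat1 (0.42 ± 0.11) in front. The 12 that were lower included the INK4 inhibitors Cdkn2d (-3.00 ± 0.11) and Cdkn2c (-2.65 ± 0.29), E2f1 (-2.65 ± 0.28) and Ccnh (-0.91 ± 0.11), the cyclin of the CDK-activating kinase. Markers of other cell types were counted in both compartments, and whether through free RNA, doublets or own expression was not tested. The mesenchymal markers stood at 0.746% to 3.28% of their fibroblast level in the 3 urothelial layers, whereas Cdkn1c in superficial cells stood at 4.07% to 138% (median 22.4%) of its fibroblast level and Ccnd3 in the layers at 20.5% to 65.0%. Both upper values come from chronic library 2, and without it they were 55.0% and 41.6%. In the other layers Cdkn1c lay nearer to the share of the markers, at 2.66% to 26.9% (median 4.99%) in intermediate and 3.86% to 24.4% (median 6.49%) in basal cells, and in intermediate cells of acute library 2 it was 3.55% beside 2.70% for the markers. In the opposite direction, the urothelial markers in myofibroblasts stood at 5.96% to 27.5% of their urothelial level, and Cdkn2b there at 57.3% (chronic library 2) and at 83.3% to 170% in the other libraries. In fibroblasts these shares were 8.88% to 25.3% for the markers and 14.2% to 31.5% for Cdkn2b, which overlap, and 56.7% and 93.2% in chronic library 2.

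Injury was tested in 4 classes, the non-cycling and the cycling urothelial cells, the fibroblasts and the myofibroblasts, and no member tested was called in them with edgeR. The comparison addresses whether CPP changes the G1 regulators of a class itself rather than the number of its cycling cells, and with 2 libraries against 2 an exact permutation test of 1 gene cannot give a p below 0.333. In non-cycling urothelial cells Ccnd1 was 108 and 89.6 CPM in the healthy, 124 and 49.1 in the acute and 53.5 and 66.2 in the chronic libraries. The chronic values lay below both healthy ones, the acute values on either side of them (chronic -0.70 ± 0.37, adjusted p 0.773). The layers made up different parts of this class: basal cells, which held the most Ccnd1, were 871 of 5266 and 1527 of 6361 cells in the healthy, 890 of 4290 and 1202 of 5238 in the acute and 457 of 7739 and 684 of 4387 in the chronic libraries, and superficial cells, which held the least, 364 and 297, 507 and 667, and 803 and 518. Within intermediate cells alone Ccnd1 was 101 and 82.0, 118 and 49.0, and 56.7 and 65.5 CPM, and within basal cells 207 and 140, 196 and 59.0, and 105 and 113 CPM, the chronic values again below both healthy ones. The part of the layers in the injury values of the whole class was not tested. Ccnd2 was 334 and 216, 571 and 227, and 240 and 274 CPM in the same order, so acute library 1 set the acute mean (0.55 ± 0.39, adjusted p 1.0). Ccnd3 was the most even, at 61.7 and 63.9 CPM in the healthy, 66.4 and 66.0 in the acute and 72.6 and 65.8 in the chronic libraries (0.11 ± 0.18 and 0.17 ± 0.18). Cdk4 ranged over all 6 libraries from 136 to 171 CPM and Cdkn2b from 41.6 to 64.8 CPM, with overlapping conditions.

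In cycling urothelial cells, Ccne1 was 12.0 and 6.13 CPM in the healthy, 20.6 and 20.7 in the acute and 12.4 and 36.6 in the chronic libraries, so all 4 injured values lay above both healthy ones (1.19 ± 0.53 and 1.45 ± 0.54, adjusted p 0.392 and 0.312). Ccne2 had the same arrangement, at 2.12 and 2.73, 8.14 and 7.59, and 4.6 and 21.9 CPM (1.68 ± 0.82 and 2.42 ± 0.82, adjusted p 0.435 and 0.27), and so did Ccnd3, at 96.7 and 81.8, 123 and 131, and 113 and 122 CPM (0.51 ± 0.21 and 0.45 ± 0.21, adjusted p 0.348 and 0.396). These libraries also differed in which cells were cycling: those with superficial markers, where the 3 genes were highest, numbered 18 and 19 in the healthy libraries and 130 to 553 in the injured ones, and the part of this shift in the differences was not tested. The chronic difference of Cdk6 was -0.66 ± 0.26 (adjusted p 0.345). At an unadjusted p under 0.05, 1 member passed in the acute and 3 passed in the chronic comparison, beside 1417 and 1446 of 10971 genes. The share of all genes with every injured value on the same side of both healthy ones was not counted, so these arrangements have no background.

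Among stromal cells, fibroblast Ccnd2 was 126 and 146 CPM in the healthy, 248 and 168 in the acute and 258 and 295 in the chronic libraries, with every injured value above both healthy ones (0.60 ± 0.34 and 0.95 ± 0.35, adjusted p 1.0 and 0.801). The urothelial markers in these fibroblasts stood at 8.88% and 23.7%, 14.2% and 15.2%, and 25.3% and 56.7% of their urothelial level in the same libraries, and without chronic library 2 the chronic difference was 0.90. Myofibroblast Ccnd2 was 119 and 109, 189 and 157, and 131 and 163 CPM, again higher in every injured library (0.63 ± 0.29 and 0.35 ± 0.31, adjusted p 1.0 and 0.878), and the chronic difference was 0.11 without chronic library 2. Here too the share of all genes with such an arrangement of libraries was not counted. Fibroblast Cdkn1c had a chronic difference of -1.32 ± 0.58 (adjusted p 0.801), which was -0.80 without chronic library 2, which leaves 1 chronic library whose spread is assumed to be that of the others. The Pi16 cells, in which Cdkn1c was highest on average, were 438 of 791 and 631 of 1333 fibroblasts in the healthy, 119 of 333 and 228 of 1408 in the acute and 484 of 1136 and 13 of 91 in the chronic libraries, and the part of this in the fibroblast values was not tested. Within the Pi16 cells Cdkn1c was 99.0 and 63.0 CPM in the healthy, 124 and 105 in the acute libraries and 45.2 in chronic library 1. Ccnd1 in fibroblasts was 27.1 and 18.6, 74.9 and 19.9, and 41.8 and 79.1 CPM, and in myofibroblasts 144 and 33.9, 175 and 142, and 73.3 and 96.0 CPM. The healthy myofibroblast pair alone differed by more than the means of the conditions. Myofibroblast Cdkn2b was 34.6 and 56.9, 66.7 and 101, and 62.8 and 26.2 CPM, with both acute values above both healthy ones (0.99 ± 0.41, adjusted p 1.0). Whether injury acted differently on urothelial and mesenchymal cells was tested as an interaction, in which no member was called. The mesenchymal cells mixed fibroblasts and myofibroblasts, which differed in Ccnd1, Cdkn1c and Cdkn2b. Myofibroblasts were 978 of 1769 and 365 of 1698 mesenchymal cells in the healthy libraries. They were 149 of 482 and 2690 of 4098 in the acute and 80 of 1216 and 100 of 191 in the chronic ones. The part of this mix in the interactions was not tested. In acute injury Ccnd1 (-1.58 ± 0.63) and Cdkn2b (-1.09 ± 0.40) had unadjusted p-values under 0.05 (adjusted p 1.0 for both), and in chronic injury Cdkn1c did (1.79 ± 0.56, adjusted p 0.643).

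Few genes of any kind were called after injury. In non-cycling urothelial cells edgeR called 0.0% of 13688 genes in either injury, while 444 (acute) and 933 (chronic) had an unadjusted p under 0.05 and DESeq2 called 23 and 89. It called 0.128% and 0.0547% of 10971 genes in cycling urothelial cells (DESeq2 176 and 185), 0.00897% of 11151 in fibroblasts in either injury (DESeq2 27 and 21), and 0.012% and 0.0% of 8324 in myofibroblasts (DESeq2 5 and 10). Both interactions were at 0.0% of 13959 genes (DESeq2 0 and 7), with 275 and 1055 genes at an unadjusted p under 0.05. None of the pathway genes tested was called after injury with edgeR, of which there were 26 in both urothelial classes, 22 in fibroblasts and 15 in myofibroblasts.

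**Figure D4:**
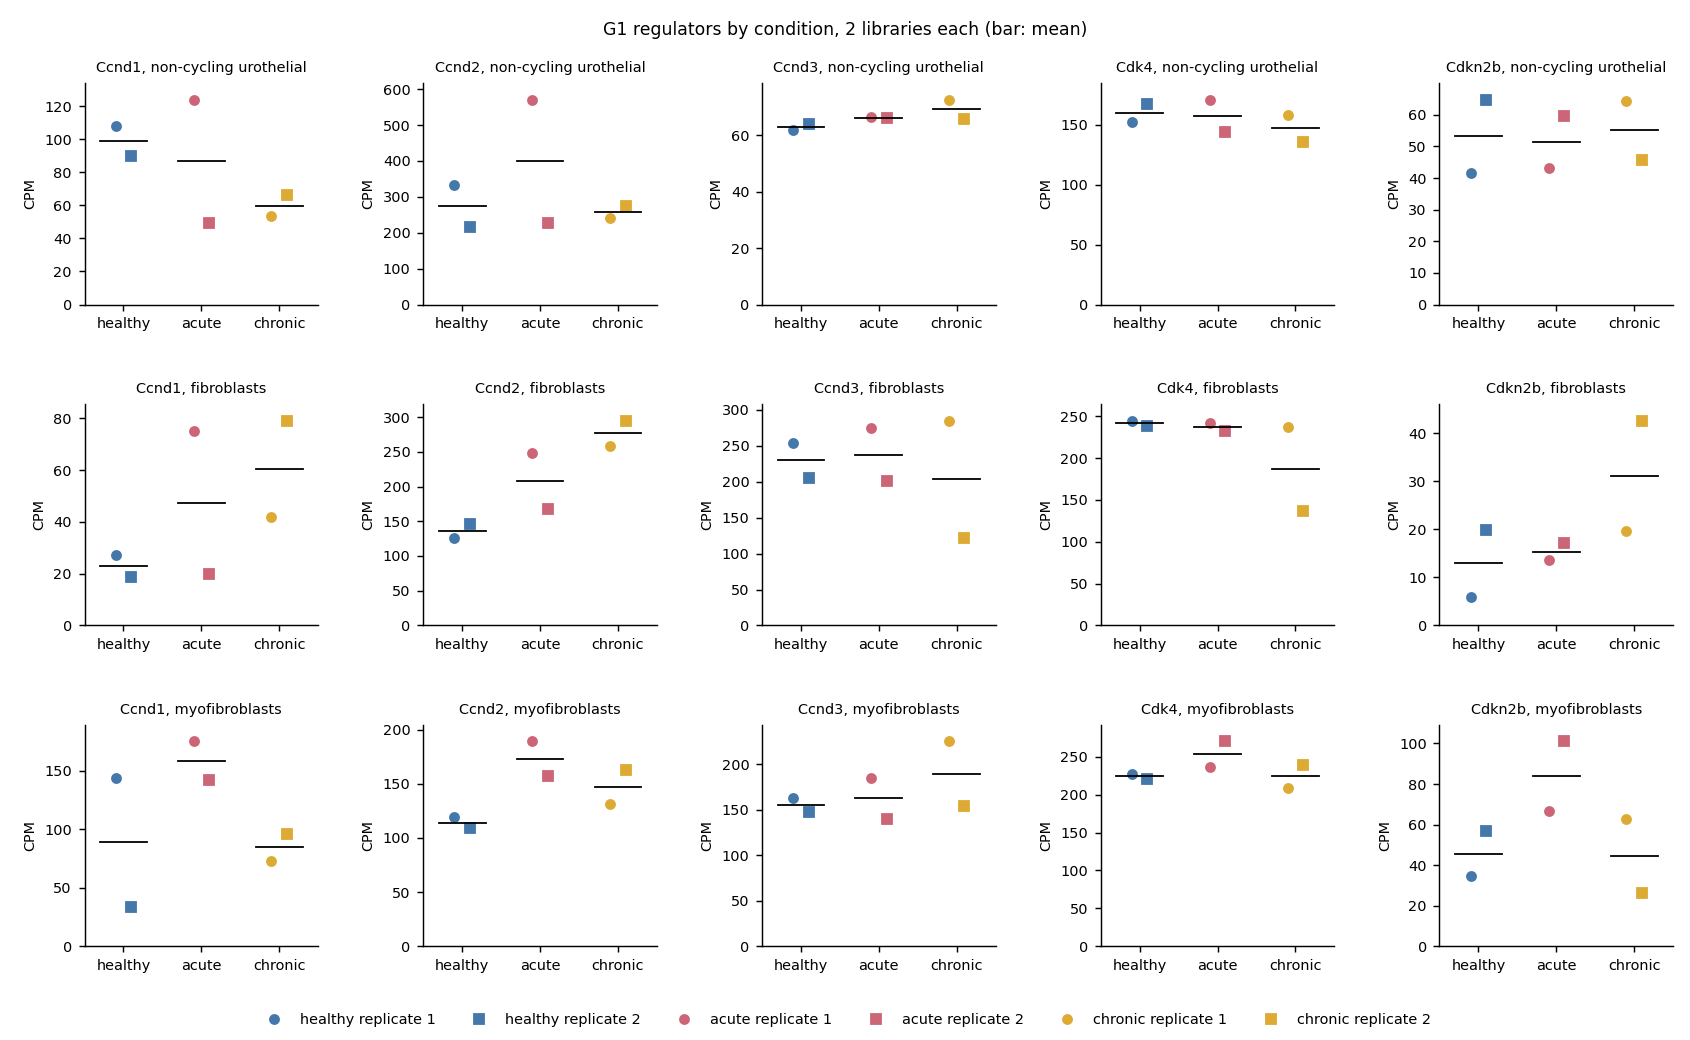
Level in CPM (y axis, from 0) of Ccnd1, Ccnd2, Ccnd3, Cdk4 and Cdkn2b by condition (x axis) in non-cycling urothelial cells, fibroblasts and myofibroblasts (rows of panels), with 1 point for each library and a bar at the mean of 2 libraries. Fibroblast Ccnd2 lies between 126 and 146 CPM in the healthy and between 168 and 295 CPM in the injured libraries, and the Ccnd2 values of myofibroblasts between 109 and 119 CPM in the healthy and between 131 and 189 CPM in the injured libraries. None of these differences passed the test.

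Over 8 classes, the 4 urothelial ones (3 non-cycling layers and all cycling cells), fibroblasts, myofibroblasts, endothelial cells and macrophages, the highest mean of Ccnd1 was in endothelial cells (208 ± 44.5 CPM, n = 5), followed by macrophages (160 ± 59.2). Ccnd2 was highest in superficial cells (498 ± 272) before endothelial cells (414 ± 137), and Ccnd3 in fibroblasts (223 ± 60.7) before myofibroblasts. Cycling urothelial cells led for Ccne1 (18.1 ± 10.7), Ccne2 (7.84 ± 7.31), Cdk4 (241 ± 26.4) and Cdkn1b (18.3 ± 4.51), and basal cells for Cdk6 (93.7 ± 24). Fibroblasts led for Cdkn1c (49.5 ± 25.7) and myofibroblasts for Cdkn2b (58.1 ± 26.6, just above superficial cells at 57.3 ± 13). Neighbours in these orders overlapped in their library values with 2 exceptions, Ccnd3 in superficial over intermediate cells and Cdkn1c in cycling urothelial over basal cells.

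The genes with the most similar pattern over the means of 16 classes, by Pearson's r of log2(CPM + 1) among 9769 genes, were Rp2 for Ccnd1 (0.912), Cdc42se1 for Ccnd2 (0.919) and Dtnbp1 for Ccnd3 (0.936). For the E-type cyclins they included Haus4 (0.923) with Ccne1 and were Ube2t (0.948), Hist1h2ae (0.944) and Rfc4 (0.943) with Ccne2. Mars (0.907) was closest to Cdk4 and Tbc1d1 (0.925) to Cdk6. Tspan8 (0.9) was closest to Cdkn2b, Sun2 (0.879) to Cdkn1b and Vps29 (0.904) to Cdkn1c. Among the 16 classes was a small class of proliferating mesenchymal cells, all called cycling, which held the highest means of Ccne1 and Ccne2. The part of this class in the values of the E-type cyclins was not tested. The classes share libraries, and these values describe likeness only.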

How the data were processed

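The members and gene lists were chosen with earlier results of these data known. The authors counted UMIs with Cell Ranger on mm10 (per the labels and the study's methods) and deposited raw UMI counts per gene and cell, without normalization, as 1 table for each of 6 libraries. One table (healthy library 1) ends in an incomplete line, 2 (healthy library 1 and acute library 1) leave out genes seen in few cells and 1 uses a newer gene set. Only the 14450 genes common to the 6 were therefore used, of which 14338 are neither mitochondrial nor ribosomal. The part of these differences between tables in the levels of single libraries was not tested. A library held 54604109 to 111985678 UMIs, and at low counts counting error and variation between libraries were not separated.

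A cell was kept if more than 500 genes were seen and less than 10% of its UMIs were mitochondrial (55398 barcodes). Doublets called with Scrublet in scanpy 1.11.5, at 0.8% per 1000 cells, were left out, as were 664 cells in those parts of a doublet-rich cluster in which doublets exceeded 33.3%, while a part of 161 cells below this was kept less its called doublets. This left 50735 cells. Libraries were normalized with sctransform 0.4.2, integrated with Seurat 5.3.0 (R 4.3.3, 3000 features, without 38 genes that include the members) and clustered (Leiden, resolution 0.8, 30 components, 20 neighbors), and clusters were named from fixed markers. Urothelial sub-clusters with a mean superficial z above 1 were called superficial (in 1 of 870 cells, 837 of them cycling, the non-cycling cells entered no class), and other cells basal where the basal score exceeded the luminal score. Cycling cells had an S score (43 genes less Ccne2) or G2/M score above the median plus 2 scaled MADs. A urothelial sub-cluster of 738 cells, 658 of them in acute library 2, with few UMIs and no urothelial markers in front, was left out, as were 28 mesenchymal cells. A proliferating mesenchymal sub-cluster of 119 cells was kept apart. The authors' cell annotation was not used here.

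For each library, counts of the cells of a class were added up where it had 20 cells or more. Tests were edgeR 4.0.16 (TMM, filterByExpr, quasi-likelihood, two-sided), with the library as block between classes and condition alone between injuries, Benjamini-Hochberg adjusted over all genes tested at 0.05. SEs are the log2 fold change over the root of F. DESeq2 1.42.0 was an alternative. All 10 members are named, and of 28 other pathway genes up to 4 per comparison and direction, from those called with the lowest p, where genes of the cycling scores were dropped unless the classes compared were both non-cycling. One gene that the rule on similar patterns names is not reported here. Added after values had been seen were 6 comparisons: cycling in cells with superficial markers, differences of the cycling effect between classes (2), and S-called against G2/M-called cells within layers (3). The rules for cycling, superficial and unnamed sub-clusters were settled after the clusters were seen.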

Additional observations from a re-analysis of the deposited data

Results flagged for a closer look

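Cdkn1c was the member whose difference between cycling and non-cycling cells itself differed between classes: it was higher in cycling than in non-cycling basal cells and lower in cycling than in non-cycling cells with superficial markers, in each of the 4 injured libraries. The study counts its cycling luminal cells with superficial traits as intermediate cells. Non-cycling intermediate cells held 2.60 ± 0.922 CPM over 6 libraries, and the cycling cells with superficial markers were not tested against them. The difference of both effects, a comparison added after values had been seen, was -2.86 ± 0.43 on the log2 scale (SE, adjusted p 0.000181 by edgeR). It kept its direction under every alternative tried, between -4.10 and -2.17, and missed the threshold without acute library 1. The lower level with superficial markers, taken alone, was not called without the mostly cycling sub-cluster (-1.17, adjusted p 0.0537). In the cycling cells it rests on 3 to 49 UMIs per library in basal cells and on 7 to 27 with superficial markers, where acute library 2 differed least (8.68 against 8.87 CPM), and the cycling cells of both classes had more UMIs per cell than the non-cycling ones. Cdkn1c is more abundant in fibroblasts, and mesenchymal markers stood at 0.968% to 3.06% of their fibroblast level in cycling basal cells, and Cdkn1c there at 8.80% to 26.1% of its own fibroblast level in 5 libraries and at 155% in chronic library 2, whose 91 fibroblasts held the highest share of urothelial marker RNA. The part of depth, of RNA from other cells and of the mostly cycling sub-cluster of basal cells in the difference was not tested.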

How the results depend on the processing

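The alternatives were DESeq2, other size factors, no filter on low counts, stricter cells, doublets kept, no integration, 4 MADs, Ccne2 in the S score, basal cells by sub-cluster, at least 50 cells and each library left out. Comparisons of cycling cells with superficial markers used no healthy library, so leaving out a healthy library could not change them. No value of a called member changed sign, and of the 58 to 60 calls that had a value, between 0 and 9 were lost per alternative (9 of 58 without acute library 1, 8 of 59 with DESeq2, which left Ccne2 in S-called cells with superficial markers without an adjusted p). In cycling basal cells the members called went from 4 to 7 with 4 MADs and to 8 with basal cells by sub-cluster, and to between 1 and 5 with a library left out (1 without acute library 1, where Ccne1 and Cdkn1c fell below the filter). In cycling intermediate cells they went from 5 to 1 by sub-cluster, and to between 3 and 4 with a library left out. For S-called against G2/M-called cells they went from 5 to 2 with DESeq2 and ranged from 2 to 7 with a library left out. Within basal cells 2 became 1 with DESeq2, 5 without the filter and 4 by sub-cluster (1 to 3 with a library left out), and within intermediate cells 2 became 0 with DESeq2 and by sub-cluster and 1 without the filter, with 4 MADs or with at least 50 cells (0 to 2). The basal minus intermediate difference gave 2 by sub-cluster instead of 0. That of superficial markers minus basal gave 2 instead of 1 with DESeq2, other size factors, stricter cells, doublets kept or 4 MADs, and 0 to 1 with a library left out. Without the mostly cycling sub-cluster, an alternative chosen after seeing the data, the members called with superficial markers went from 8 to 5. The causes were not tested. Counts for the other comparisons stayed within 1.5 times.

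In basal minus intermediate cells 0 members were called with any library left out. Replicate numbers were not shown to pair the libraries, since the correlations of deviations over 4 classes ran from 0.106 to 0.377 between healthy and acute, from -0.301 to 0.150 between healthy and chronic and from -0.267 to -0.066 between acute and chronic libraries. With the replicate number as a block 0 members were called, and over all genes 0 to 3 in each injury comparison. With the chronic numbers crossed, an alternative chosen after seeing the data, 0 members and up to 27 genes were called. Depth limits the tests of Ccne2 and Cdkn1c, which were under the filter on low counts in several comparisons.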

Other observations

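A small sub-cluster of proliferating mesenchymal cells, kept out of the comparisons, had at least 20 cells in healthy library 1 and acute library 2 (27 and 55 cells). Ccne1 was 69.4 and 56.8 CPM there, Ccne2 69.4 and 35.9 CPM and Cdk4 549 and 410 CPM, while Ccnd2 was 101 and 38.9 CPM. These are the highest means of Ccne1, Ccne2 and Cdk4 and the lowest of Ccnd2 in any class of cells summed, over 2 libraries and with 30, 23, 224 and 29 UMIs. All cells of this sub-cluster (100.0%) were called cycling, unlike most other classes. Its leading genes Mxd3, Fam64a and Hist1h2ap also led the doublet-rich cluster, in which 62.182% of barcodes were called doublets. The part of doublets and of cycling in these levels was not tested.

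Outside the urothelium and the fibroblasts, macrophages held 110 to 265 CPM of Ccnd1 over the 6 libraries and 191 to 277 CPM of Ccnd2. NK cells, with at least 20 cells in 3 libraries, held 299, 323 and 452 CPM of Ccnd2 and 160, 217 and 263 CPM of Ccnd3. Mural cells, in 2 libraries, held 554 and 407 CPM of Ccnd2 and 113 and 81.4 CPM of Cdk6. Each of these classes rests on few cells and its levels were not tested.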
